A study of Mus musculus with 4 samples.

Results

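The ectodysplasin pathway was examined through 8 genes picked by name: the ligand gene Eda, the receptor genes Edar, Eda2r and Tnfrsf19, the adaptor genes Edaradd and Traf6, the NF-kappaB inhibitor gene Nfkbia and the growth factor gene Fgf20. All 8 had 1 probe set of their own on the array, out of 19938 gene symbols with such a probe set, and all 8 passed the filter on low values that left 14953 genes for testing. The arrays held total RNA of mouse embryonic skin at stage E17.5, with RNA of 2 mice on each. The 2 Ovol2 BT arrays came from mice carrying both the TRE-Ovol2-Flag transgene and the K5-tTA driver, labelled as strain FVB/N. The 2 control arrays came from mice with TRE-Ovol2-Flag alone or wild type, labelled as strain CB6F1. All 4 are labelled female, and the labels call the mice littermates housed together, so the strain labels and the genotype cannot be told apart. The keratin 5 promoter of the driver works in basal epidermal cells and in the outer cells of hair follicles, and the study asked how differentiation of the epidermis changes when the zinc finger factor Ovol2 is overexpressed there.

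Ectodysplasin is a ligand of the tumour necrosis factor family that signals between skin cells. Its receptor EDAR binds the death domain adaptor EDARADD, which recruits TRAF6 and activates the IkappaB kinases. These mark the inhibitor IkappaB-alpha, the product of Nfkbia, for degradation and so release NF-kappaB, which in turn switches Nfkbia on as feedback. In mouse skin the pathway is known for its part in forming hair placodes, the epidermal thickenings that start follicles, and loss of Eda, Edar or Edaradd in mice gives the same coat defect (Tabby, downless and crinkled). FGF20 is a signal that placode cells make in response and that gathers the dermal cells beneath.

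The skin arrays carried the transgene product and the defining genes of the tissue. The intensity of Ovol2 was 4367 and 3893 in Ovol2 BT skin, against 360 and 161 in control skin (log2 difference 4.0, SE 0.33, limma adjusted p = 0.00309). The basal keratin gene Krt5 read 4478 and 3790 in Ovol2 BT skin, against 9485 and 8288 in control skin. The suprabasal keratin gene Krt10 read 9303 and 8733 in Ovol2 BT skin, against 10654 and 9152 in control skin, so epidermis was present on all 4 arrays. Array medians lay between 123 and 132 intensity units. Of the 14953 genes tested, 0.963% passed an adjusted p of 0.05, 0.348% lower and 0.615% higher in Ovol2 BT skin. The arrays of a group are called biological replicates in the labels, and their small number limits the precision of every value.

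Of the 8 pathway genes, the receptor gene Edar was the only one called, and it fell in Ovol2 BT skin. The count of 1 in 8 stands beside the 0.963% called over all genes. The 8 genes were chosen with earlier results of these data known, so setting them beside all genes is no independent test. The 8 log2 differences had a median of -0.34, beside -0.041 over all genes tested. In 5 of the 8 genes (Edar, Tnfrsf19, Edaradd, Traf6 and Fgf20) both Ovol2 BT arrays lay below both control arrays, as did 21.9% of all genes. In none of the 8 did both lie above, as in 20.4% of all genes. The ligand gene Eda, the receptor gene Eda2r and the inhibitor gene Nfkbia had overlapping groups.

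**Figure D1:**
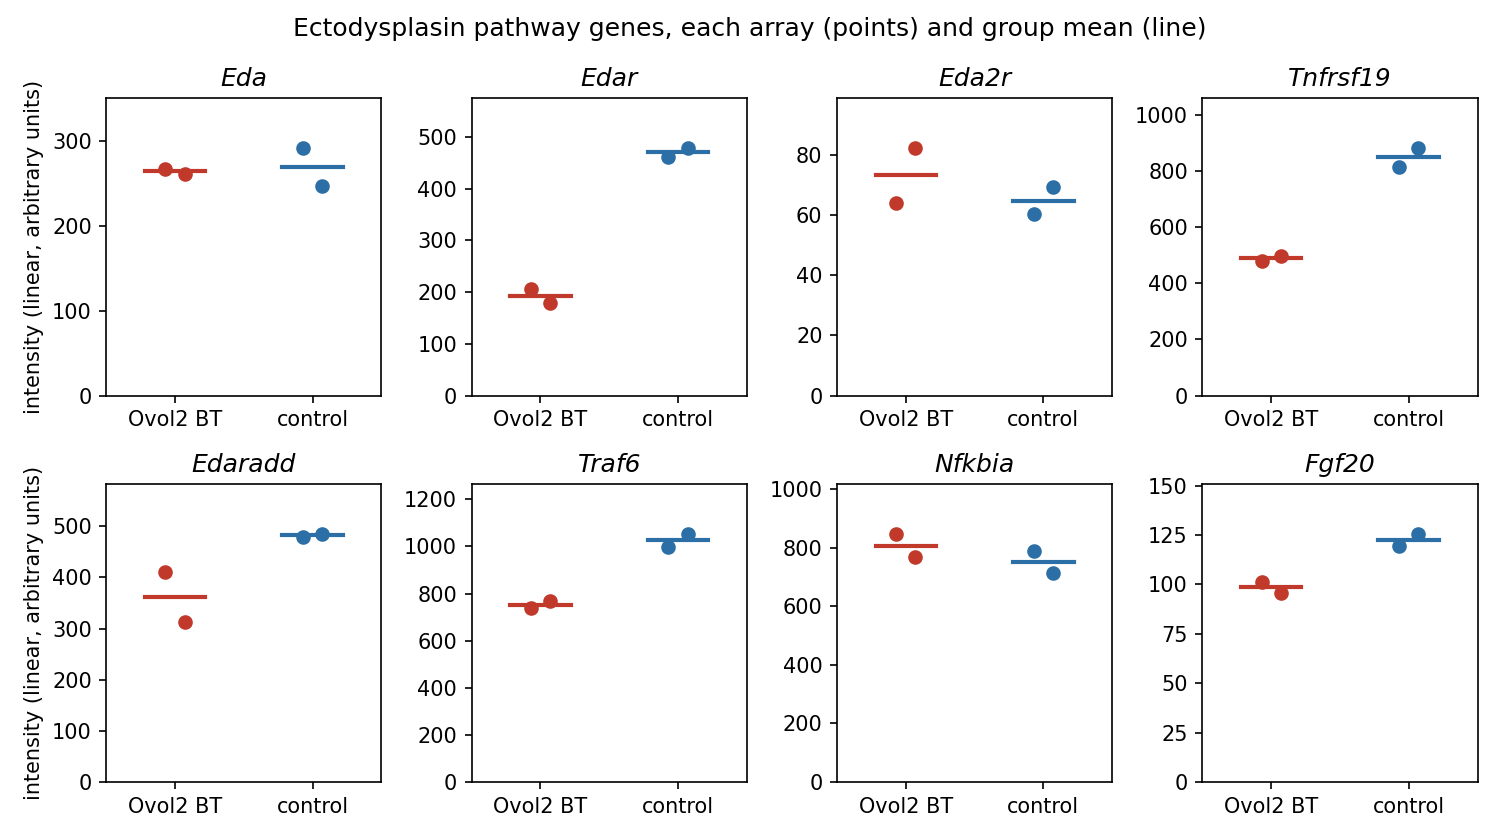
Deposited intensity (linear, arbitrary units, from 0) of each pathway gene on the 2 Ovol2 BT arrays (red, left) and the 2 control arrays (blue, right). Points are arrays and lines are group means. Edar and Tnfrsf19 show the widest gaps between the groups, while Eda, Eda2r and Nfkbia overlap.

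The ligand gene showed no difference beyond the spread of the arrays. Eda read 267 and 261 intensity units in Ovol2 BT skin, against 292 and 247 in control skin. Both Ovol2 BT values lay between the control values. Its means were 264 ± 4.25 in Ovol2 BT skin and 269 ± 32.0 in control skin (SD, n = 2 each), a log2 difference of -0.022 with a 95% interval of -0.48 to 0.44 (limma adjusted p = 0.976). That interval leaves room for moderate changes either way. The splice forms of Eda, which bind either EDAR or EDA2R, share the 1 probe set and were not told apart.

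Edar, which encodes the receptor that placode cells use to read the ligand, was far dimmer with the transgene and driver present. It read 207 and 179 intensity units in Ovol2 BT skin, against 461 and 479 in control skin. The groups were far apart compared with the arrays within them: on the log2 scale the replicates differed by 0.20 in Ovol2 BT skin and by 0.054 in control skin. The means were 193 ± 20.1 in Ovol2 BT skin and 470.2 ± 12.8 in control skin (SD, n = 2 each). Edar fell by 1.22 on the log2(intensity + 16) scale (SE 0.21, 95% interval -1.69 to -0.76, a 2.33-fold size, limma adjusted p = 0.0299). Ranked by log2 difference from the lowest up, it stood at position 54 of 14953 genes. The call was close to the threshold and ended without Ovol2 BT replicate 2 (log2 difference -1.12, adjusted p = 0.0575). It also ended under quantile normalization (-1.16, adjusted p = 0.0531) and when arrays were centred on genes of cell junctions (-0.92, adjusted p = 0.0828). Of 17 junction genes tested, 16 had lower values in Ovol2 BT skin before that centring, with a median log2 difference of -0.28. Whether these genes are a neutral reference was not tested. They include Cdh3 (-0.77), which is also a placode marker below. The junction centring raised the median difference of all genes to 0.26. It shifts all genes of an array alike, so by construction the distance of Edar from the median gene stayed at -1.18.

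The start of the Edar gene is shown because Edar was the member that fell, and that of Nfkbia because this gene is the feedback target of NF-kappaB. Both are RefSeq windows of the mouse build GRCm38.p6, from 250 bases before to 50 bases after the gene's start, written 5′ to 3′ along the gene. Edar lies on the minus strand at chr10:58675647-58675946 and Nfkbia on the minus strand at chr12:55492598-55492897. Capitals mark motif letters found on either strand.
Edar: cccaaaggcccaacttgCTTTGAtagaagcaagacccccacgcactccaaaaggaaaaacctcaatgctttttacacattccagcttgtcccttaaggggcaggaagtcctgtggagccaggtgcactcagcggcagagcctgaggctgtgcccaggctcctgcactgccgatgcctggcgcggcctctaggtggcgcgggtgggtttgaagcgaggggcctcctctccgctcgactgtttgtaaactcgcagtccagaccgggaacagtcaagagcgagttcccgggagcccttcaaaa
Nfkbia: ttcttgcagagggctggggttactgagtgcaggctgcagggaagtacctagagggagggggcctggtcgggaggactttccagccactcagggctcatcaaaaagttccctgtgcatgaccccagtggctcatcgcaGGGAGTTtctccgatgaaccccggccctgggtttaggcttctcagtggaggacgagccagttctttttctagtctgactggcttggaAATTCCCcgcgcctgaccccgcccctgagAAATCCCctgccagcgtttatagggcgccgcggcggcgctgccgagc

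The 3 motifs, chosen with these windows in view, were searched on both strands, and no matches of different motifs overlapped. The LEF/TCF letters CTTTGA, which read TCAAAG when they lie on the other strand, begin 233 bases before the start of Edar. Of 32851 promoter windows of this length, 5257 hold them. They are also in 1 of the windows of Tnfrsf19, beginning 201 bases before its start. The core GGGANTT of NF-kappaB sites, which reads AANTCCC when it lies on the other strand, is in the Nfkbia window 3 times, in no window of another pathway gene, and in 16.5% of all windows. The Ovo-type letters CCGTTA, which read TAACGG when they lie on the other strand, were in none of the 8 windows of 7 pathway genes, and 2.76% of all windows hold them. The windows covered all members but Fgf20. A match is a run of letters, not a measured binding site.

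Tnfrsf19 encodes TROY, a receptor related to EDAR that is also expressed in developing follicles. It read 478 and 499 intensity units in Ovol2 BT skin, against 815 and 883 in control skin. The groups did not overlap, and the replicates lay close together. The means were 489 ± 14.5 in Ovol2 BT skin and 849 ± 47.8 in control skin (SD, n = 2 each). The log2 difference was -0.78 (SE 0.20, 95% interval -1.24 to -0.31, position 184 from the lowest). It did not pass the test over all genes (limma unadjusted p = 0.00426, adjusted p = 0.186), and was -0.47 when arrays were centred on genes of cell junctions. Together with Edar it made 2 of 8 pathway genes under an unadjusted p of 0.05, beside 10.4% of all genes.

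Eda2r, the X-linked receptor for the other splice form of the ligand, was the dimmest of the members and near the low-value filter. It read 64.1 and 82.4 intensity units in Ovol2 BT skin, against 60.4 and 69.1 in control skin. The groups overlapped. The log2 difference was 0.14 (SE 0.16, 95% interval -0.21 to 0.49, limma adjusted p = 0.769).

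Both adaptor genes had lower values in Ovol2 BT skin without passing the test. Edaradd, whose product carries the EDAR signal through its death domain, read 410.3 and 313 intensity units in Ovol2 BT skin, against 479 and 485 in control skin. Its Ovol2 BT arrays were apart from each other by 0.37 on the log2 scale, nearly as much as the groups (log2 difference -0.41, SE 0.22, 95% interval -0.91 to 0.091, limma adjusted p = 0.570). Its difference was -0.22 without Ovol2 BT replicate 2 and -0.60 without Ovol2 BT replicate 1, so that 1 array decided its size. Traf6, a ubiquitin ligase shared with many other receptors, read 737 and 769 intensity units in Ovol2 BT skin, against 999.6 and 1054 in control skin. Here the replicates were close together (log2 difference -0.44, SE 0.20, 95% interval -0.89 to 0.013, limma adjusted p = 0.494). With arrays centred on genes of cell junctions the differences were smaller, at -0.11 for Edaradd and -0.14 for Traf6.

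Nfkbia, whose product holds NF-kappaB in the cytoplasm and is made anew when NF-kappaB acts, did not pass the test. It read 847 and 767 intensity units in Ovol2 BT skin, against 790.2 and 715 in control skin. The ranges overlapped (log2 difference 0.099, SE 0.21, 95% interval -0.37 to 0.56, limma adjusted p = 0.877). Fgf20, the placode signal to the dermis, read 101 and 95.8 intensity units in Ovol2 BT skin, against 119.6 and 126 in control skin. Its groups did not overlap, but the gap was small (log2 difference -0.28, SE 0.16, 95% interval -0.64 to 0.085, limma adjusted p = 0.590).

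**Figure D2:**
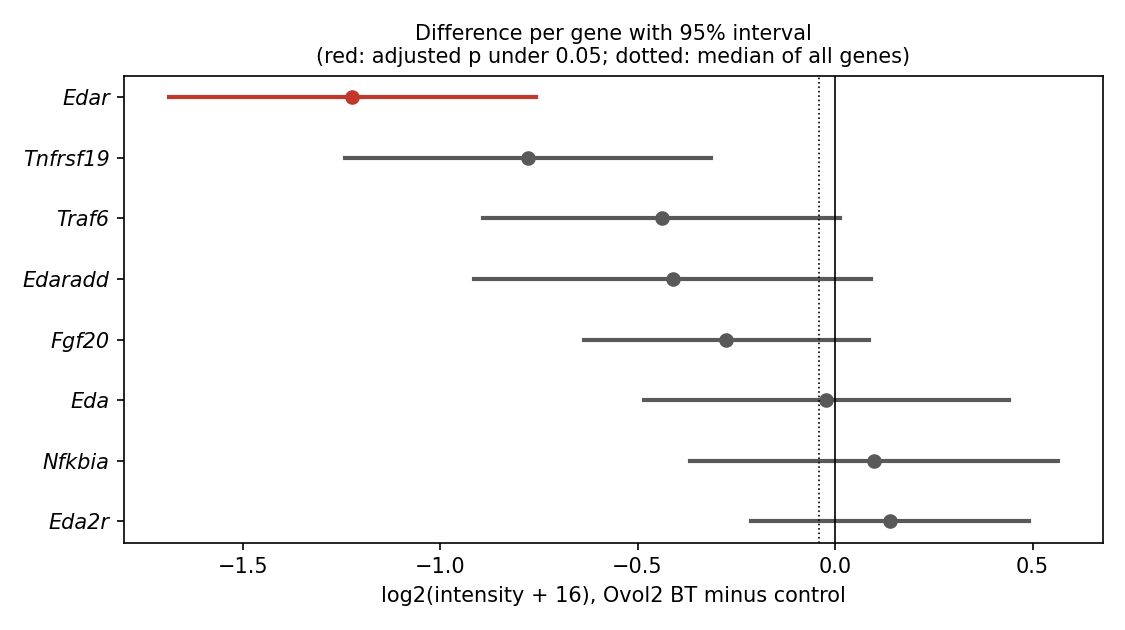
Log2(intensity + 16) in Ovol2 BT minus control for each pathway gene (horizontal axis, log2 units), with unadjusted 95% intervals from limma. The dotted line is the median of all genes at -0.041. Edar (-1.22, red) passed an adjusted p of 0.05, and the interval of Tnfrsf19 (-0.78) also lies below 0.

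The difference of Edar was set against those of 4 other pathway genes within each array, a comparison that a constant added to all log2 values of an array cannot move. The log2 difference of Edar was lower than that of the ligand gene Eda by an amount of -1.20, than that of Edaradd by -0.81, than that of Traf6 by -0.78 and than that of Tnfrsf19 by -0.45. Edar had the lowest difference of all members, so these amounts could only be negative. Eda2r, Nfkbia and Fgf20 were not set against it. In each of these 4 pairs the log2 ratio was lower on both Ovol2 BT arrays than on both control arrays. The exact permutation test (two-sided) gave p = 0.333 for each pair, the smallest that this test allows with 2 arrays against 2, so it cannot reach 0.05.

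Genes listed as placode genes beside or after EDAR, some of them known from later follicle parts, were lower in part. The list was chosen with earlier results of these data known, so setting its counts beside all genes is no independent test. Of 32 listed genes 27 were tested, 23 with lower and 4 with higher values in Ovol2 BT skin, and the median log2 difference was -0.28 beside -0.041 for all genes. Over all genes 55.6% had lower values. At an unadjusted p under 0.05, 9 were lower, beside 5.25% of all genes. Among them, Cxcl10 was above the low-value filter only on control replicate 1. Its relative Cxcl11, higher on both Ovol2 BT arrays than on both control arrays, was left out by that filter. By adjusted p, 4 were called lower, beside 0.348%. These 4 fell: Lhx2 (-1.83, SE 0.22, adjusted p = 0.00729), a LIM homeobox factor of follicle progenitors, Dkk1 (-1.57, SE 0.22, adjusted p = 0.0137), a secreted Wnt inhibitor, Sox21 (-1.37, SE 0.20, adjusted p = 0.0166), an SRY-box factor of the hair shaft cuticle, and Msx2 (-1.24, SE 0.19, adjusted p = 0.0190), a homeobox factor of the hair matrix, all by limma. With arrays centred on genes of cell junctions the calls of Sox21 (-1.07, adjusted p = 0.0649) and Msx2 (-0.94, adjusted p = 0.0845) ended. Sox21 read 192 and 204 intensity units in Ovol2 BT skin, against 516 and 560 in control skin, so its groups did not overlap. Shh, the hedgehog ligand that EDAR signalling induces in placodes, was named after its values were seen. It read 294 and 320 intensity units in Ovol2 BT skin, against 499 and 531 in control skin, and did not pass the test (log2 difference -0.72, SE 0.21, limma adjusted p = 0.241).

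The general NF-kappaB apparatus showed no calls. Over all genes, 0.963% were called and 10.4% were under an unadjusted p of 0.05 by limma. Of the kinases, subunits and inhibitors of NF-kappaB, 19 of 23 listed genes were tested, with 8 lower and 11 higher values, a median log2 difference of 0.046, 0 called by limma and 0 under an unadjusted p of 0.05. The smallest p values belonged to the subunit gene Relb (0.32, SE 0.19, adjusted p = 0.592), the atypical inhibitor gene Nfkbiz (0.38, SE 0.23, adjusted p = 0.593) and Tnip1 (0.35, SE 0.22, adjusted p = 0.613), which encodes a partner of the deubiquitinase A20. The TRAF and adaptor list had 16 of 19 genes tested, with 10 lower and 6 higher values, a median of -0.088, and again 0 called by limma and 0 under an unadjusted p of 0.05. Its leading genes were Traf1 (0.27, adjusted p = 0.635), Ube2n (-0.31, adjusted p = 0.637), the ubiquitin-conjugating partner of TRAF6, and Traf2 (-0.33, adjusted p = 0.659).

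The wider receptor family and the FGF genes had no calls either. Over all genes, 10.4% were under an unadjusted p of 0.05 by limma, with 5.25% lower. Among TNF receptors and their ligands 19 of 21 genes were tested, 6 with lower and 13 with higher values and a median log2 difference of 0.097. By limma 0 were called, and 1 was under an unadjusted p of 0.05, the ligand gene Lta (0.49, SE 0.15, adjusted p = 0.270). The control values of Lta (64.1 and 68.4 intensity units) lay close to the low-value filter, with control replicate 1 under it. The receptor genes Fas (0.35, adjusted p = 0.508) and Relt (-0.37, adjusted p = 0.521) came next. Of the FGF ligands, receptors and response genes all 22 were tested, with 9 lower and 13 higher values, a median of 0.060 and 0 called by limma. At an unadjusted p under 0.05, 1 was lower, the ETS factor gene Etv5 (-0.65, SE 0.22, adjusted p = 0.357), and 3 were higher, among them the related Etv4 (0.57, SE 0.22, adjusted p = 0.433) and Fgf1 (0.49, SE 0.21, adjusted p = 0.477). Listed genes without a probe set of their own, such as Chuk, Nfkb1 and Traf3, were not analysed here.

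**Figure D3:**
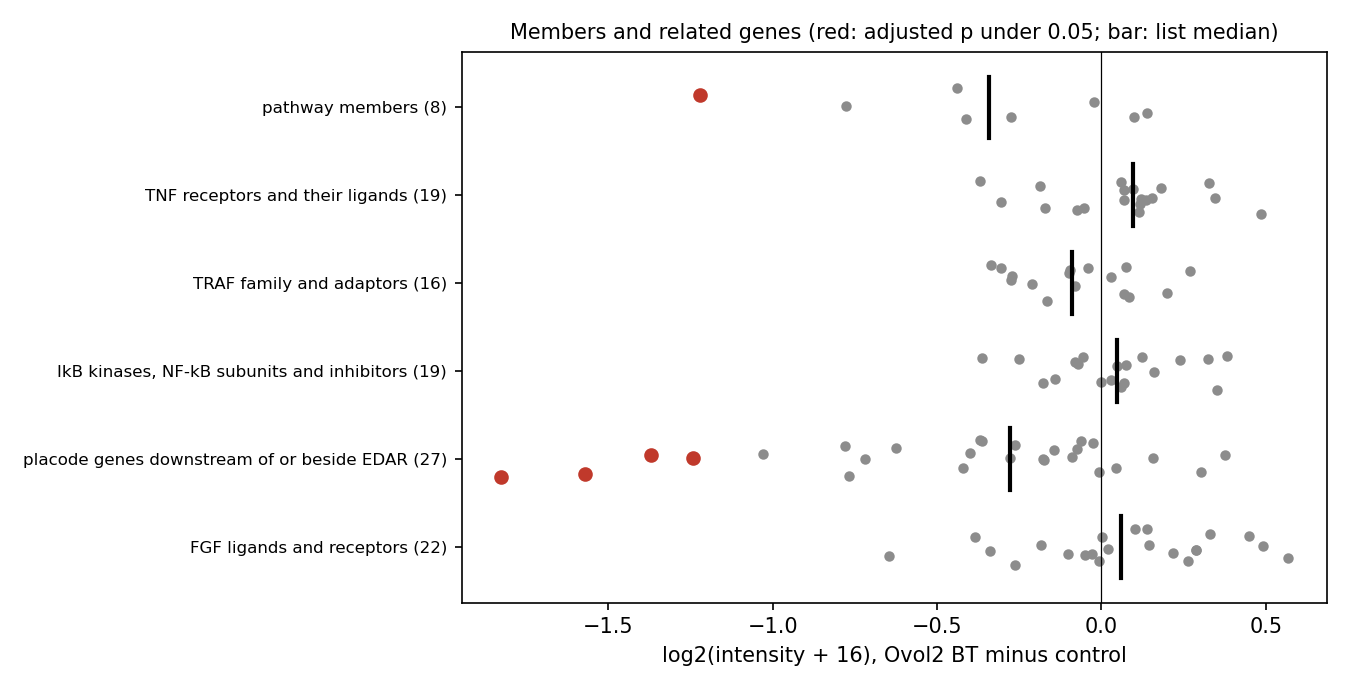
Log2 difference, Ovol2 BT minus control (horizontal axis), of the 8 pathway genes and of the tested genes of 5 related lists (rows, with the number of genes). Points are genes, red where the adjusted p is under 0.05, and black bars are medians. The called genes are Edar and 4 genes of the placode list, all below 0.

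Whole skin was measured, so fewer placode cells and less Edar RNA per cell cannot be told apart. Markers of placode and hair germ were tested in 9 of 9 genes, with a median log2 difference of -0.77. Of these markers 8 had lower values, beside 55.6% of all genes, and 2 were called lower (Lhx2 and Sox21), beside 0.348%. All 9 also stand in the list of placode genes above, so these are the same values and calls read as markers. Their summed intensity was 5876 and 5041 in Ovol2 BT skin, against 9037 and 9472 in control skin. The difference of Edar was -0.45 beyond that median, and that of Tnfrsf19 was -0.0089 from it. The 9 markers ranged from -1.83 (Lhx2) to 0.16 (Wnt10b), so Edar at -1.22 lay within their range. None of these markers was at 0, and their part in the Edar result was not tested.

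Marker sums of other cell populations differed between the groups as well. These lists, too, were chosen with earlier results of these data known. Over all genes 55.6% had lower values, and 5.25% were lower at an unadjusted p under 0.05. By adjusted p, 0.348% of all genes were called lower and 0.615% higher. The 7 basal keratinocyte markers summed to 13067 and 11100 intensity units in Ovol2 BT skin, against 24725 and 22316 in control skin, with 3 called lower (Krt15, Krt5 and Krt14) and a median log2 difference of -0.35. These 3 keratin genes carried most of the lower sum. The other 4 basal markers (Itga6, Itgb4, Trp63 and Col17a1), none of them called, summed to 4950.4 and 4508 in Ovol2 BT skin, against 5015 and 5368 in control skin. The 8 dermal condensate markers all had lower values (median -0.61), with 0 called by limma and 6 under an unadjusted p of 0.05. Their sum was 9284 and 7709 in Ovol2 BT skin, against 11744 and 10266 in control skin. The 7 adipocyte markers went the other way, with 5 called higher and sums of 16442 and 16690 in Ovol2 BT skin, against 5785 and 4065 in control skin. Fibroblast sums overlapped (33437 and 34678 in Ovol2 BT skin, 32274 and 34023 in control skin). Lowest readings were 631 for the basal, 121 for the dermal condensate and 37.9 for the adipocyte markers. The last belongs to Ucp1, one of the 5 called, whose control values (37.9 and 44.2) were both under the low-value filter. Ucp1 passed that filter only through its Ovol2 BT arrays. The part of these populations in the pathway values was not tested.

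Among all other tested genes, those with the profile closest to Edar over the 4 arrays were found by the root mean square difference of log2 values, each gene being centred on its own mean. The closest were Art4 (0.062), which encodes an ADP-ribosyltransferase family protein, the homeobox genes Msx2 (0.064) and Irx4 (0.083), the T-box factor gene Tbx1 (0.11) and the stefin gene Stfa3 (0.11). Tbx1 read 410.2 and 430.4 intensity units in Ovol2 BT skin, against 939 and 938 in control skin. As they were picked for their likeness to Edar on these arrays, their group differences are given with no test. The log2 differences lay between -1.24 (Msx2) and -1.13 (Stfa3). Art4 was above the low-value filter only on its control arrays. Stfa3 belongs to a family of near-identical genes, so its probes may also read its relatives. The likeness rests on 4 arrays.

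**Figure D4:**
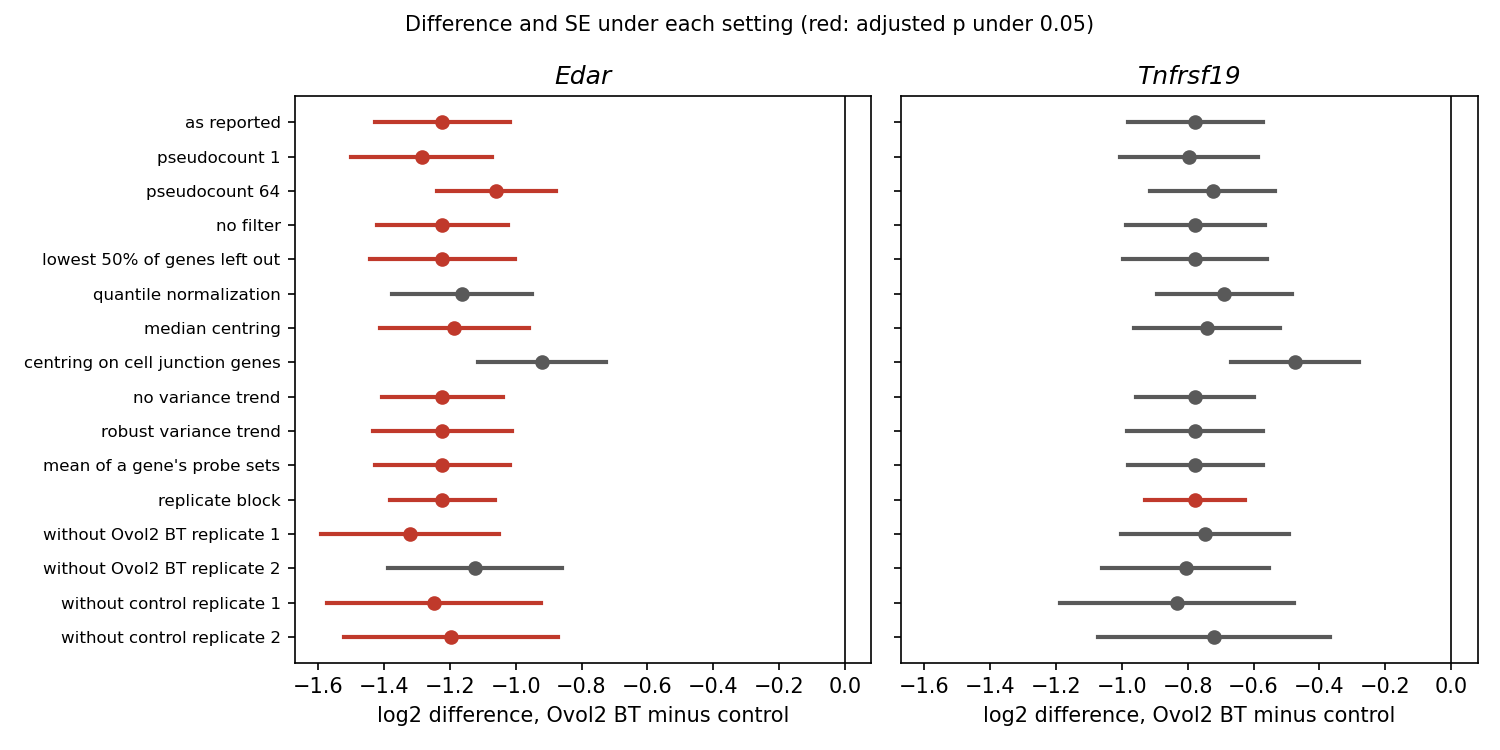
Log2 difference of Edar and Tnfrsf19, Ovol2 BT minus control (horizontal axis), as reported and under each of 15 other settings (rows), with bars of 1 SE. Red marks an adjusted p under 0.05. All values lie below 0. Edar was called in 12 of the 15 settings and Tnfrsf19 in 1, the replicate block.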

How the data were processed

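Skin RNA of 2 Ovol2 BT and 2 control samples was hybridised to Affymetrix whole-transcript arrays. The authors deposited an intensity on a linear scale for each probe set; the submitters' processing notes name PLIER 2.0 and Affymetrix Expression Console 1.1.1. The genome build, background correction and normalization between arrays were not given in the sources used here. Groups came from the sample titles.

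Of 35557 probe sets, 21789 name 1 gene in the platform annotation, 1621 name several and 12147 are not named. For each of 19938 symbols the probe set with the highest mean was used. All 8 members matched the RefSeq table by Entrez ID. Values were taken as log2(intensity + 16), which understates changes of dim genes, and the 25% of genes with the lowest mean (4985, under a mean log2 of 6.38) were left out. limma 3.58.1 in R 4.3.3 (lmFit and eBayes with a variance trend, two-sided, 2 residual and 6.95 prior degrees of freedom) was fitted with a group term over 14953 genes, and p values were adjusted by Benjamini-Hochberg over all of them. Calls needed an adjusted p under 0.05. The fit was also run on simulated arrays drawn from its own model with independent errors, which cannot show how well it suits the arrays here. Summaries and plots used Python 3.11.15, pandas 2.3.3 and matplotlib 3.10.9.

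Named genes are the 8 members, called genes and the 3 smallest p values of each related list, and the 5 profiles closest to Edar. Cxcl10, Cxcl11, Cdh3, Wnt10b and Ucp1 were named to state limits, after their values were seen. The members and lists were chosen with earlier results of these data known. Marker lists of suprabasal keratinocytes, muscle, immune, endothelial, melanocyte and Schwann cells had median log2 differences of -0.19, 0.30, 0.21, 0.23, -0.56 and 0.082. The Schwann median rests on 2 tested genes, 1 with a lower and 1 with a higher value. In these lists 1 gene was called (Tyr, lower), beside 0.348% of all genes. Both Ovol2 BT values of Tyr (54.6 and 58.0) were under the low-value filter, which it passed only through its control arrays.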

Additional observations from a re-analysis of the deposited data

How the results depend on the processing

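The counts of calls and the log2 difference of each member were recomputed under 15 other settings; Eda2r was tested in 13 and Fgf20 in 14 of them. Edar was lower in all 15, between -1.32 and -0.92, and called in 12; its call ended under quantile normalization (-1.16), with arrays centred on cell junction genes (-0.92) and without Ovol2 BT replicate 2, and leaving out 1 array gave -1.32 to -1.12. The members called numbered 0 under each of those 2 scalings, and 0 to 1 with 1 array left out. Eda had values of 0.048 under quantile normalization, 0.014 under median centring and 0.28 under the junction centring, and -0.14 to 0.093 with 1 array left out. Fgf20 stood at 0.028 under the junction centring, whose own genes mostly had lower values in Ovol2 BT skin before it. Tnfrsf19, Edaradd and Traf6 had lower values in all 15 settings, but the junction centring shrank them to -0.47, -0.11 and -0.14, and Eda2r and Nfkbia kept higher ones wherever they were tested. The junction centring moved the median of all genes by 0.30 and gave 172 higher and 20 lower calls (89.6% higher against 63.9%), with 2 placode genes (Lhx2 and Dkk1) called. It uses values centred per gene; a form on plain list medians of level, seen before it and replaced, shifted the median of all genes to 0.53 and called 4278 genes. With 1 array left out, where the lone array is assumed to vary like the other group, 204 to 351 genes were called: 351 without control replicate 1, 244 without Ovol2 BT replicate 2, against 144. Arrays of the same number deviated together from their group means (r = 0.41 across genes), but no label pairs them. With the number as a replicate block 652 genes were called, 2 members (Edar, and Tnfrsf19 at -0.78, adjusted p = 0.0169), 8 genes of the placode list and 1 FGF gene. For the results that changed, the cause was not tested.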
